A study of Mus musculus with 2 samples.

Results

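Horizontal cells are interneurons of the retina, and their nuclei in a mouse eye section were the subject. They were picked by transcript counts: a barcode counted as a horizontal cell nucleus when it held 5 or more UMIs (unique molecules) summed over the transcription factor genes Onecut1, Onecut2 and Lhx1, with 2 or more of these from Onecut1 and Lhx1. It could hold no more than 1 UMI of Slc17a6, the vesicular glutamate transporter of ganglion cells, and Slc6a9, the glycine transporter of glycinergic amacrine cells, combined. This gave 53 nuclei of 16867 kept, a share of 0.314% (exact binomial 95% interval 0.235 to 0.411%). Because measured values chose the members, the levels of these 5 genes are given as a description and support nothing.

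The series compares Prph2C213Y/+ mice, heterozygous for a mutant allele of the photoreceptor disc rim gene Prph2, with wild-type mice matched for age and sex, all on the C57BL/6J strain and with spatial data at 6 months. The data come from T1, which consists of 2 libraries (expression and spatial barcode) that the labels assign to neither genotype, so genotypes are neither compared nor inferred. The labels name 1 section of 10 micrometres from 1 eye, untreated, from which nuclei were isolated after their positions had been tagged on a SeekSpace chip. The expression matrix held 17285 barcodes and 55843593 UMIs, and every barcode had a position. Kept nuclei had 200 or more detected genes and less than 10% mitochondrial UMIs, and a median of 1811 UMIs. There are no replicates, so intervals cover counting error only, nuclei are not replicates, and no test was made.

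The positions formed 4 ring-shaped pieces of tissue, although the labels describe 1 section of 1 eye. The horizontal nuclei of pieces 1 to 4 had 0, 50.4, 0 and 876 CPM of Xist (counts per 1000000 UMIs of the pooled nuclei), the RNA that coats the inactive X chromosome. All other kept nuclei of these pieces had 44.3, 58.2, 40.4 and 887 CPM. For 4 genes of the Y chromosome together, the horizontal nuclei had 329, 212, 165 and 49.6 CPM in pieces 1 to 4, and all other nuclei 184, 177, 175 and 36.1 CPM. Piece 4 thus stood apart from the other pieces in the horizontal nuclei and in the remaining nuclei alike. Values are given by piece below where a result turns on it.

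Horizontal cells lie at the outer edge of the inner nuclear layer, where their dendrites meet the terminals of photoreceptors. Glutamate from photoreceptors drives them through ionotropic receptors, and they return an inhibitory signal to the photoreceptors. Mouse horizontal cells are of the axon-bearing kind only, contact cones with their dendrites and rods with their axon terminals, are joined to each other by gap junctions, and are commonly recognised by calbindin, the product of Calb1.

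The 53 nuclei were large libraries for this section. They had a median of 8277 UMIs (3599 to 47927) and 3058 detected genes, against medians of 4350.5 UMIs in amacrine-like, 6089.5 in ganglion cell-like, 3410.5 in bipolar-like and 1071 in rod-like nuclei. The sum of Onecut1, Onecut2 and Lhx1 had a median of 12 UMIs and a highest value of 38. At the threshold, 7 members had a sum of exactly 5, and 4 kept nuclei that met the other terms had a sum of 4. Of the 75 kept nuclei with a sum of 5 or more, 7 were left out for too little Onecut1 and Lhx1 and 15 for too much Slc17a6 and Slc6a9. Since a fixed count of UMIs was required, shallow nuclei of horizontal cells had less chance to be picked.

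Most members also carried the markers that the counts rule had not used. Calb1, which encodes the calcium buffer calbindin, was seen in 50 of 53 nuclei (94.3%, 84.3 to 98.8%), with a lowest value of 0, a median of 7.19 and a highest value of 18.2 UMIs per 10000. It was seen in 1.75% of amacrine-like and 0.154% of rod-like nuclei, classes of lower depth. Thinned to 1000 UMIs per nucleus, the shares were 56.6% of horizontal, 0.372% of amacrine-like and 0.123% of rod-like nuclei, so the classes also differed at equal depth. Tfap2b, a transcription factor gene of horizontal and amacrine cells, was likewise seen in 94.3% of horizontal and 53.4% of amacrine-like nuclei, or in 60.4% and 26.1% after thinning. Both unused markers were therefore seen in most members, while only Calb1 was rare in amacrine-like nuclei.

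Some members held transcripts of other retinal cell types as well. Of the 53, 39 fell in the cluster led by horizontal cell markers (54 nuclei in all, with a median of 5468 UMIs among the 15 that were not members). Another 12 fell in cluster 20, which carried 7 of 12 bipolar and 3 of 12 Müller glia markers, 1 in a further bipolar-like cluster and 1 in a ganglion cell-like cluster. Summed over rod, bipolar, ganglion cell and Müller glia markers, the nuclei had between 8.59 and 408 UMIs per 10000. In 19 of them the sum was 58.7 or more, and in the other 34 it was 46.4 or less. All 7 members above 15000 UMIs were among the 19, so that the 34 held only 46.1% of the pooled UMIs.

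**Figure D1:**
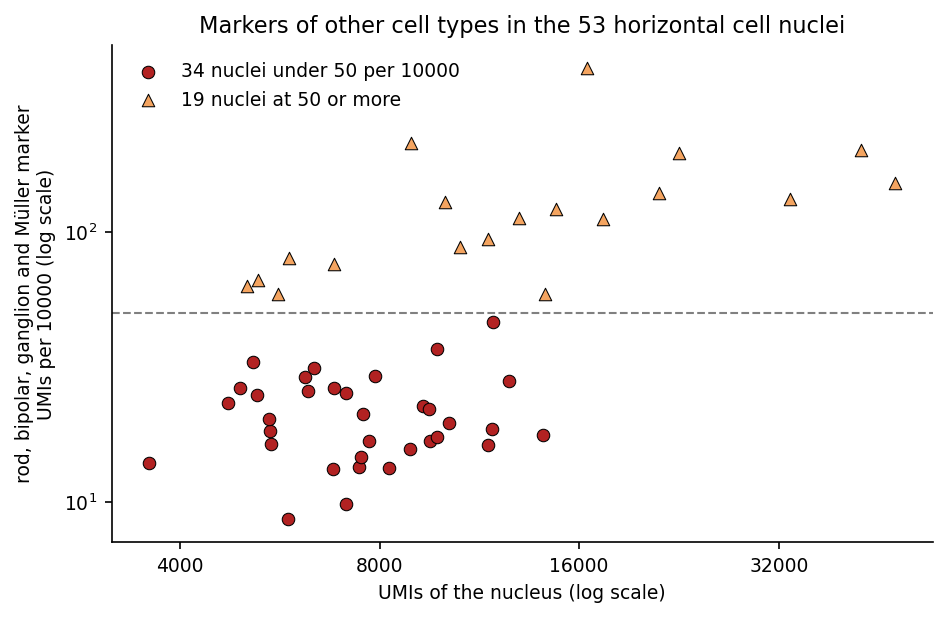
Each point is a horizontal cell nucleus, with its UMIs on the x axis (log scale) and its rod, bipolar, ganglion cell and Müller glia marker UMIs per 10000 on the y axis (log scale); the dashed line marks 50. The 34 nuclei below the line (circles) had at most 14130 UMIs, and the 19 above it (triangles) reached 47927.

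The bipolar marker list had 9092 CPM in the 19 nuclei and 568 CPM in the 34, with all 12 and 10 of 12 markers seen, and ranges of 2.99 to 176 and 0 to 20.4 UMIs per 10000. The Müller glia list had 4196 and 1042 CPM, with all 12 markers seen in both, and ranges of 2.93 to 212 and 2.68 to 24.6. The rod list had 1383 and 392 CPM and the ganglion cell list 556 and 183 CPM. In the 34, the bipolar markers Vsx1 and Cabp5 and the ganglion cell markers Rbpms, Pou4f1, Pou4f2, Pou4f3 and Isl2 were at 0. The sum over these lists defined the split, so lower levels of their genes in the 34 follow from the choice and support nothing. Whether a barcode with both sets of markers held more than 1 nucleus was not tested, and most main values are given for all 53 and for the 34. The limit of 50 that splits them was chosen after the values were seen.

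**Figure D2:**
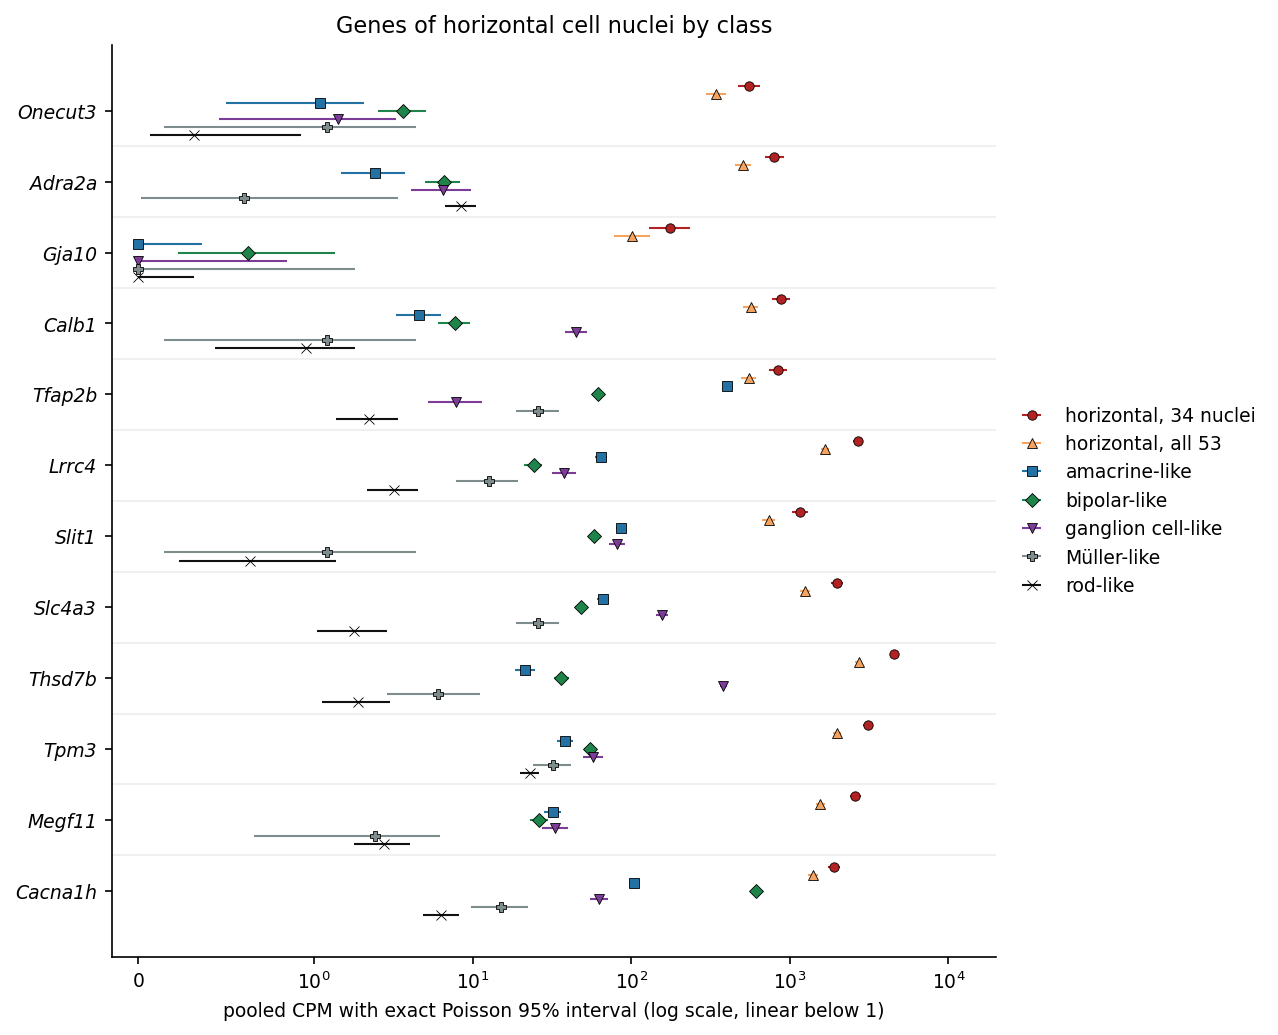
Pooled CPM (x axis, log scale, linear below 1) of 12 genes in the 34 and all 53 horizontal nuclei and in 5 other classes; bars are exact Poisson 95% intervals, and a count of 0 is drawn to the limit of 3 counts. Onecut3, Adra2a and Gja10 were near 0 in the other classes drawn, while Tfap2b was also present in amacrine-like nuclei at 403 CPM and Cacna1h in bipolar-like nuclei at 609 CPM.

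Which genes set horizontal nuclei apart was asked first. A gene was called horizontal-high when the lower 95% Poisson bound of its CPM was 2 or more times the upper bound in every other class of 50 or more nuclei. Of 13563 genes with 200 or more UMIs, 27 were called with all 53 nuclei (0.199%) and 44 with the 34 (0.324%), and the 44 included all 27. The 27 covered transcription, cytoskeleton, extracellular matrix, adhesion, ion transport and signalling.

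Among regulators, Onecut3, the third gene of the ONECUT family and not part of the selection, had the highest ratio to the next class. It had 344 CPM (298 to 395) in all 53 and 556 CPM (471 to 653) in the 34, against 1.09 CPM in amacrine-like nuclei and 7.44 CPM in surface epithelium-like nuclei, the next class. In pieces 1 to 4 of the 34 it was at 546, 572, 537 and 570 CPM. Among the 34, the level was thus alike in every piece. Lmo1, which encodes a LIM-only protein that binds transcription factor complexes, had 253 CPM in all 53 and 355 CPM in the 34, against 64.1 CPM in rod-like nuclei.

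Calb1 (ENSMUSG00000028222, chromosome 4, 15881264 to 15906709, GRCm38) had 570 CPM (510 to 635) in all 53 and 885 CPM (776 to 1005) in the 34. Amacrine-like nuclei had 4.61 CPM, and cluster 13, the next class, had 74.2 CPM. Cluster 13 was an unnamed cluster of 305 nuclei in which 3 of 5 horizontal and 4 of 12 amacrine markers stood out. It carried 91.3 CPM of Onecut1, 676 CPM of Tfap2b and 1843 CPM of Slc6a9. Without piece 3, which held 4 of the 7 largest members, Calb1 was at 698 CPM in the remaining horizontal nuclei.

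Genes for receptors and transporters made up a second set. Adra2a, the gene of the alpha-2A adrenergic receptor, had 508 CPM (451 to 569) in all 53 and 799 CPM in the 34, against 2.43 CPM in amacrine-like and 15.3 CPM in lens-like nuclei. It was seen in 94.3% of horizontal and 0.991% of amacrine-like nuclei. Slc4a3, which encodes a chloride-bicarbonate exchanger, had 1248 CPM in all 53 and 1975 CPM in the 34, against 66.1 CPM in amacrine-like and 156 CPM in ganglion cell-like nuclei. F2r, a thrombin receptor gene, had 207 and 332 CPM in the same sets, against 53.4 CPM in lens-like nuclei. Cacna1h, the gene of a T-type calcium channel, and Ryr3, the gene of a calcium release channel, were the 2 with the smallest ratios. Cacna1h had 1399 and 1897 CPM against 609 CPM in bipolar-like nuclei, and Ryr3 had 1186 and 1564 CPM against 504 CPM in bipolar-like nuclei.

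Genes of adhesion, guidance and the matrix were also among the 27. Lrrc4, whose netrin-G ligand protein is known in mouse retina for the contact of horizontal cell axons with rods, had 1670 CPM in all 53 and 2707 CPM in the 34. Amacrine-like nuclei had 64.2 CPM, rod-like nuclei 3.17 CPM and lens-like nuclei, the next class, 132 CPM of Lrrc4. Slit1, a secreted guidance cue read by Robo receptors, had 735 and 1161 CPM in the horizontal sets, against 86.4 CPM in amacrine-like nuclei. Tnr, which encodes the matrix protein tenascin-R, had 6174 and 9793 CPM against 1437 CPM in cluster 13. Cdh4, the gene of R-cadherin, had 3176 and 5040 CPM against 1266 CPM in lens-like nuclei. Enzymes that add sulfate to matrix sugars were called with them: Hs6st3, of heparan sulfate, had 4613 and 7303 CPM against 1160 CPM in amacrine-like nuclei, and Chst8 had 238 and 370 CPM against 56.5 CPM in adipocyte-like nuclei. Adgrb1, the gene of an adhesion receptor with thrombospondin repeats, had 2460 and 3872 CPM against 748 CPM in cluster 40. Thsd7b, of another protein with thrombospondin repeats, had 2727 and 4529 CPM against 381 CPM in ganglion cell-like nuclei.

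Cytoskeletal genes were the third set. Tpm3, a tropomyosin gene, had 1988 CPM in all 53 and 3110 CPM in the 34, against 38.3 CPM in amacrine-like and 258 CPM in muscle-like nuclei. The septins, which form filaments under the membrane, were represented by Sept4 with 945 and 1482 CPM against 154 CPM in Müller-like nuclei. Sept7 had 630 and 948 CPM against 138 CPM in vascular-like nuclei, and was seen in all 53 horizontal nuclei, as Sept4 was. Cdc42ep4, whose protein links the GTPase Cdc42 to septins, had 797 and 1258 CPM against 231 CPM in melanocyte-like nuclei. Dcx, which encodes the microtubule-binding protein doublecortin, had 201 and 317 CPM against 18.4 CPM in amacrine-like and 30.4 CPM in ganglion cell-like nuclei. Of the list of 17 tested sprouting and AMPK genes, Dcx was the only one called above amacrine-like nuclei in both sets. Gap43 and Marcks, genes of growth cone proteins, were called below in both. Over all tested genes, 1.76% were above and 2.89% below with both sets.

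The remaining called genes included Syt2, of a fast calcium sensor of vesicle release, with 639 and 1075 CPM against 4.98 CPM in amacrine-like and 210 CPM in ganglion cell-like nuclei. Vwc2, of a secreted bone morphogenetic protein antagonist, had 745 and 1128 CPM against 222 CPM in amacrine-like nuclei. Ptpro, a receptor tyrosine phosphatase gene, had 821 and 1247 CPM against 303 CPM in amacrine-like nuclei. The phosphodiesterase gene Pde3a had 2115 and 3222 CPM against 809 CPM in amacrine-like nuclei. Fam124a and Fam189a1 completed the 27. The 17 genes called with the 34 alone included Cacna2d3, Chgb, Pcsk6, Wnk4, Sdk2, Rbfox2 and Msi2.

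Promoters are shown for genes that were high together in horizontal nuclei, because the proteins of Onecut1 and Lhx1 bind DNA. RefSeq promoters of GRCm38.p6 (250 bases before to 50 after the gene's start) matched 19 of the 27 genes, and Adgrb1, Cacna1h, Calb1, Cdh4, Onecut3, Pde3a, Ryr3 and Slit1 had no entry used here. Only the first listed promoter of each gene was searched, although some genes, such as Lmo1, Dcx and Tpm3, had 2 listed. The letters ATCAAT, the core of the ONECUT consensus, and TAATTA, a core of LIM-homeodomain sites, were searched on both strands. ATCAAT lay in 2 of the 19 (10.5%), Tpm3 and Lmo1, against 7.76% of the promoters of 27025 genes. TAATTA lay in 3 of the 19 (15.8%), Lrrc4, Lmo1 and Dcx, against 5.31% of all. With 19 promoters these shares are a description, a match is not a binding site, and no match says only that the letters are not in this window. The promoters of Lrrc4 (chr6:28831698-28831997, minus strand), Lmo1 (chr7:109175158-109175457, minus strand) and Gja10 (chr4:32602333-32602632, minus strand), a horizontal cell gap junction gene described below, read 5′ to 3′ as follows, with TAATTA and with ATCAAT or its reverse complement ATTGAT in capitals. The motifs did not overlap, and Gja10 held neither.
Lrrc4: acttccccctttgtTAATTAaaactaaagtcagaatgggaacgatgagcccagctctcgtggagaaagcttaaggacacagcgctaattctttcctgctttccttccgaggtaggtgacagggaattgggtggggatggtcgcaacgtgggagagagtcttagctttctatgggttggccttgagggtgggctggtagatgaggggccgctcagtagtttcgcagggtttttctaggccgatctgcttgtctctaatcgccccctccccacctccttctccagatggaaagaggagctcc
Lmo1: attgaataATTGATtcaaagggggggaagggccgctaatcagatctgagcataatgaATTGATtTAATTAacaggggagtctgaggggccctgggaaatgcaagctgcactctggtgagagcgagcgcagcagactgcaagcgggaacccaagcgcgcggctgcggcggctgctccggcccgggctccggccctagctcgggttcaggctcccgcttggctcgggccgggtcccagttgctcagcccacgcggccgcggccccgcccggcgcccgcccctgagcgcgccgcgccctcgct
Gja10: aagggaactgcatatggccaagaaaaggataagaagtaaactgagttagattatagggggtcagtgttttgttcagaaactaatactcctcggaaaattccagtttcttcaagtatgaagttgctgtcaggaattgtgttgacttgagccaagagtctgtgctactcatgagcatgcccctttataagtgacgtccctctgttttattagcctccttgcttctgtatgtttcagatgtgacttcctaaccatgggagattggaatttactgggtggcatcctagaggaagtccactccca

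How horizontal nuclei differed from amacrine-like nuclei, the other inhibitory interneurons of the inner nuclear layer, was asked next. The amacrine-like class left out the unnamed clusters 13 (305 nuclei) and 36 (200 nuclei, with Chat among its leading genes). Calls against the amacrine-like class therefore do not cover those clusters. A gene was called above or below when the 95% bounds were 2 or more times apart. With all 53 nuclei, 457 of 13563 genes (3.37%) were above and 526 (3.88%) below the 1716 amacrine-like nuclei. With the 34, 320 (2.36%) were above and 685 (5.05%) below. Of these, 239 (1.76%) were above and 392 (2.89%) below with both sets, and 4 were above with either set and below with the other. Counts on the gene lists below stand beside these shares of 1.76% and 2.89%. Over all tested genes the median log2 ratio was -0.07 with the 53 and -0.23 with the 34, after 5 CPM had been added to both sides.

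Of the 23 horizontal cell identity genes among the features, 19 were tested. Calb1, Onecut3, Prox1, Sall3, Sept4, Megf11, Megf10, Slc4a3 and Vim (9 genes) were above amacrine-like nuclei with both sets, 2 were below, and the list's median log2 ratio was 1.40 with the 53 and 1.88 with the 34. Prox1, of a homeodomain protein required for horizontal cell formation in mice, had 1542 and 1863 CPM in the 53 and the 34, against 180 CPM in amacrine-like and 1421 CPM in cluster 13 nuclei. Megf11 and Megf10 encode the cell surface receptors that space horizontal and starburst amacrine cells in mouse retina. Megf11 had 1558 and 2595 CPM against 31.9 CPM in amacrine-like nuclei, but 3177 CPM in cluster 36, an unnamed cluster led by the starburst gene Chat. Megf10 had 131 and 146 CPM against 4.85 CPM in amacrine-like and 539.5 CPM in Müller-like nuclei. Vim, of an intermediate filament protein, had 336 and 482 CPM against 7.89 CPM in amacrine-like and 1064 CPM in lens-like nuclei. Sall3, of a zinc finger protein, had 34.4 and 44.8 CPM against 0.607 CPM in amacrine-like and 82.3 CPM in cone-like nuclei. Tfap2b had 549 and 844 CPM against 403 CPM in amacrine-like nuclei and was not called.

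The identity genes below amacrine-like nuclei with both sets were Tfap2a, a paralogue of Tfap2b, and Calb2, which encodes calretinin. Tfap2a had 36.1 and 59.7 CPM against 239 CPM in amacrine-like nuclei. Calb2 had 3 UMIs, all in 1 of the 53 nuclei and none in the 34, against 73.3 CPM in amacrine-like nuclei. Ptf1a and Foxn4, which direct horizontal cell fate in the embryo, had 0 UMIs in the 53, which allows up to 5.16 CPM (3 counts). Ptf1a was also at 0 in the amacrine-like nuclei. Pvalb (parvalbumin) had 1 UMI. The neurofilament genes Nefl, Nefm and Nefh had 60.2, 24.1 and 27.5 CPM in the 53, against 19.7, 10.6 and 23.8 CPM in amacrine-like nuclei. Of these, Nefl was above with the 34 only, at 85.9 CPM. Bdnf, Ccnd1 and Car2 were not called: Bdnf had 8.61 CPM against 11.9, Ccnd1 5.16 CPM against 3.64, and Car2 115 CPM against 106 in amacrine-like nuclei.

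Gja10, the gene of connexin 57, the gap junction protein that couples mouse horizontal cells, was under the 200 UMI minimum and not tested. It had 59 UMIs in 40 of the 53 nuclei (75.5%, 61.7 to 86.2%), or 102 CPM (77.3 to 131), and 175 CPM in the 34. Amacrine-like nuclei had 0 UMIs among 8240690, and lens-like nuclei, the next class, had 2.54 CPM. In pieces 1 to 4 of the 34 it was at 215, 158, 160 and 171 CPM. Of the 9 tested connexin, pannexin and partner genes, 0 were called above or below amacrine-like nuclei with both sets. With 9 genes, 0 lies near the 1.76% above and 2.89% below of all tested genes. Gjd2 (connexin 36), known from AII amacrine and cone coupling, had 13 UMIs in the 53 and 0 in the 34, against 446 CPM in cluster 13. Tjp1, which encodes the junction scaffold ZO-1, had 627 and 672 CPM against 691 CPM in amacrine-like nuclei.

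**Figure D3:**
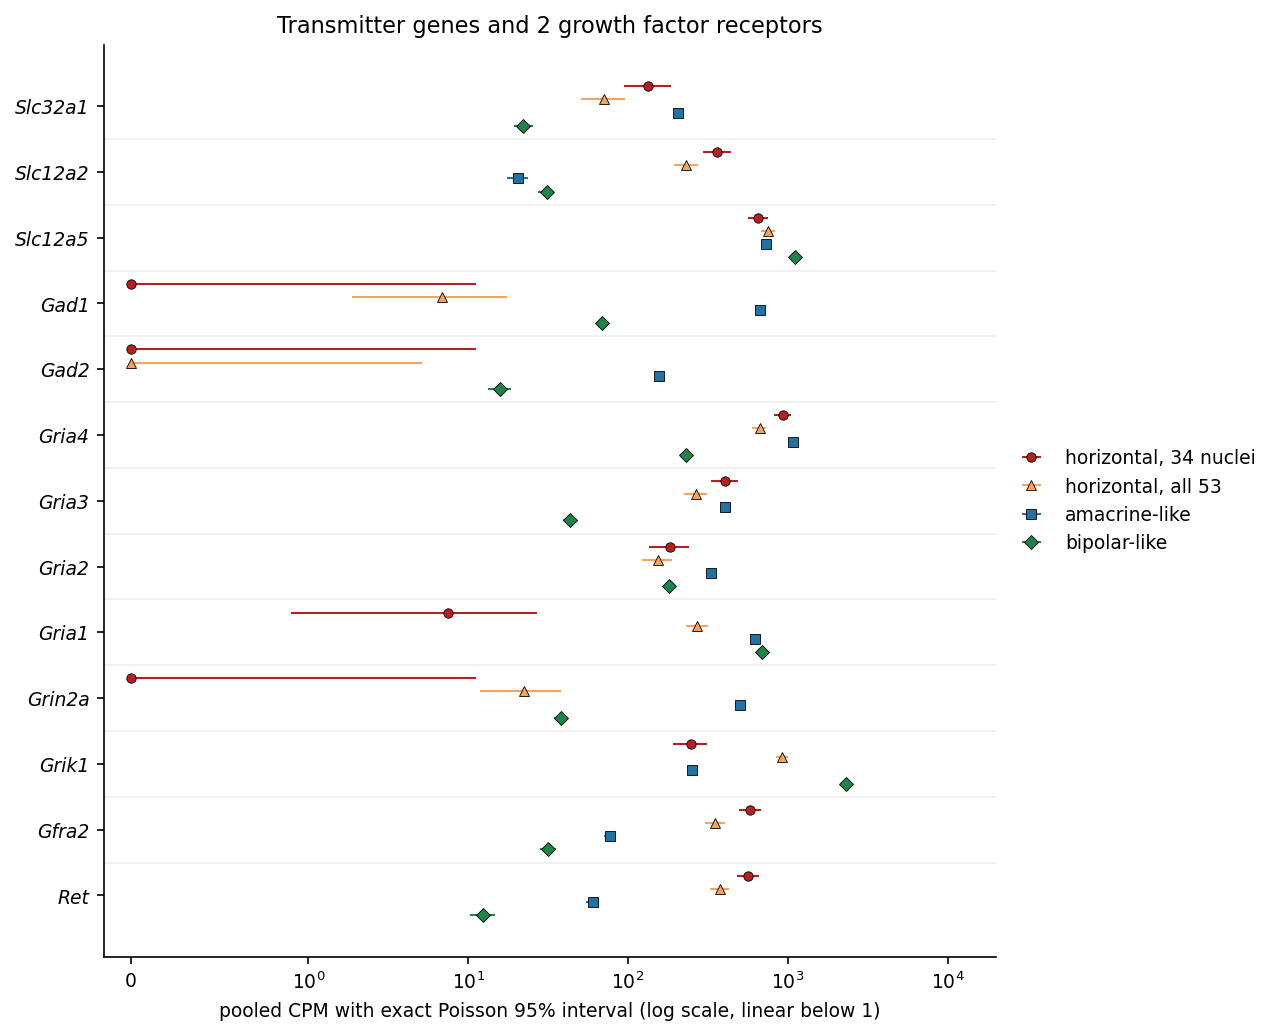
Pooled CPM (x axis, log scale, linear below 1) of 13 genes in the 34 and all 53 horizontal nuclei, amacrine-like and bipolar-like nuclei; bars are exact Poisson 95% intervals, and a count of 0 is drawn to the limit of 3 counts. Gad1 and Gad2 were at 0 in the 34 horizontal nuclei, whereas Slc12a2, Gfra2 and Ret were above both other classes.

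Genes for making and clearing GABA were low in horizontal nuclei, while the vesicular transporter was present. Gad2, which encodes a GABA-synthesising enzyme, had 0 UMIs in the 53 nuclei, against 157 CPM in amacrine-like nuclei, where it was seen in 38.9% of nuclei. Gad1, of the other such enzyme, had 4 UMIs in 3 of the 53 and 0 in the 34, against 668 CPM in amacrine-like nuclei. A count of 0 in the 34 allows up to 11.2 CPM (3 counts). Slc32a1, whose product loads GABA or glycine into vesicles, had 41 UMIs in 50.9% of the 53, or 70.6 CPM, and 134 CPM in the 34, against 205 CPM in amacrine-like nuclei. Thinned to 1000 UMIs it was seen in 13.2% of horizontal, 17.7% of amacrine-like and 0.0308% of rod-like nuclei. It was called below with the 53 but not with the 34. The membrane GABA transporter gene Slc6a11 and the breakdown enzyme gene Abat were below with both sets. Slc6a11 had 143 CPM in the 53 and 14.9 CPM in the 34, against 473 CPM in amacrine-like and 1107 CPM in Müller-like nuclei.

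The gene of a chloride importer was above amacrine-like nuclei. Slc12a2, the gene of NKCC1, which carries chloride into cells, had 231 CPM (193 to 273) in the 53 and 362 CPM in the 34, against 20.4 CPM in amacrine-like and 755 CPM in surface epithelium-like nuclei. It was the only gene of the 12 on the GABA synthesis and transport list called above with both sets. Slc12a5, the gene of KCC2, which carries chloride out, had 752 and 653 CPM against 731 CPM in amacrine-like nuclei and was not called. Of 21 tested GABA and glycine receptor genes, 0 were above and 6 below with both sets. Gabrr1, Gabrr2 and Gabrr3, of the rho subunits known from bipolar cells, were above with the 53 alone, and Gabrr3 was at 0 in the 34. Glycine receptor genes Glra2 and Glra3 had 1 and 4 UMIs in the 53 and 0 in the 34, against 107 and 157 CPM in amacrine-like nuclei. Gphn, of the receptor anchor gephyrin, had 1825 and 1908 CPM against 1626 CPM in amacrine-like nuclei.

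Of the AMPA receptor genes, whose receptors receive photoreceptor glutamate, Gria2, Gria3 and Gria4 were not called in either direction. Thinned to 1000 UMIs, Gria4 was seen in 47.2%, Gria3 in 20.8% and Gria2 in 13.2% of horizontal nuclei, against 0.369%, 0.185% and 3.29% of rod-like nuclei. Gria4 had 666 and 930 CPM in the 53 and the 34, against 1086 CPM in amacrine-like nuclei. Gria3 had 265 and 403 CPM against 407 CPM, and Gria2 had 153 and 183 CPM against 333 CPM. All 34 nuclei had a UMI of Gria4. Gria1 was called below with the 34 alone: it had 270 CPM in the 53 but 2 UMIs (7.47 CPM) in the 34, against 626 CPM in amacrine-like and 687 CPM in bipolar-like nuclei. Grid1 (480 CPM in the 53, 1 UMI in the 34) and Grik1 (923 and 246 CPM) likewise had most of their UMIs in the 19 nuclei, and bipolar-like nuclei had 1545 CPM of Grid1 and 2330 CPM of Grik1. Grik1, unlike Grid1, is among the markers that defined the 19.

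Of 16 tested ionotropic glutamate receptor genes, 0 were above amacrine-like nuclei with both sets and Grik2, Grik3, Grin2a, Grin2b and Grin2d (5) were below. The shares of all tested genes were 1.76% and 2.89%. Grin2a, of an NMDA receptor subunit, had 22.4 CPM in the 53 and 0 UMIs in the 34, against 503 CPM in amacrine-like nuclei. Grin2b had 56.8 CPM in the 53 and 1 UMI in the 34, against 459 CPM. Grin1, of the subunit that all NMDA receptors share, had 372 and 568 CPM against 274 CPM in amacrine-like nuclei. Horizontal nuclei thus held transcripts of Grin1 with few of Grin2a or Grin2b. The list's median log2 ratio was -0.66 with the 53 and -1.80 with the 34.

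Among 18 auxiliary subunit genes of these receptors, Syndig1 was above and 7 were below with both sets. Syndig1, of a membrane protein at AMPA receptor synapses, had 131 and 202 CPM against 28.2 CPM in amacrine-like and 431 CPM in cluster 13 nuclei. Cacng3, of an AMPA receptor auxiliary protein, had 649 and 978 CPM against 438 CPM in amacrine-like nuclei and was not called. Shisa9 and Gsg1l, of other such proteins, had 1 and 0 UMIs in the 34, against 416 and 133 CPM in amacrine-like nuclei. Of 8 metabotropic receptor genes, 5 were below with both sets, among them Grm2, Grm4, Grm7 and Grm8. Grm6, the ON bipolar receptor gene, had 151 CPM in the 53 and 11.2 CPM in the 34, but it is among the markers that defined the 34.

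Calcium channel genes were called in both directions. Of 17 tested, Cacna1h and Cacna2d3 were above amacrine-like nuclei with both sets, and 6 were below, against 1.76% and 2.89% of all tested genes. Cacna2d3, of an auxiliary calcium channel subunit, had 1804 and 2711 CPM against 579 CPM. Cacna1d, of an L-type channel, had 403 and 101 CPM against 1272 CPM in amacrine-like nuclei, and Cacna1c, of another, had 77.5 and 22.4 CPM against 946 CPM. The L-type channel gene of photoreceptors, Cacna1f, and its partner Cacna2d4 were above with the 53 alone, with 2 and 13 UMIs in the 34.

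Of 47 sodium, potassium and HCN channel genes, Kcnj2 was above and 16 below with both sets. Kcnj2, of an inward rectifier, had 31.0 and 52.3 CPM against 2.91 CPM in amacrine-like nuclei. Kcnj10, the Müller glia rectifier gene, was above with the 53 alone. Müller glia markers were part of the sum that split the members. The loss of the Kcnj10 call in the smaller set is therefore no separate result. Of 28 genes for proton, bicarbonate and sodium pump proteins, Slc4a3 and Atp1b1 were above and Asic2 below with both sets, against 1.76% and 2.89% of all tested genes. Atp1b1, of a sodium pump subunit, had 812 and 1273 CPM against 331 CPM in amacrine-like nuclei. Asic2, of an acid-sensing channel, had 1110 and 556 CPM against 11068 CPM in amacrine-like nuclei.

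Of 92 wiring and adhesion genes, 10 were above and 21 below amacrine-like nuclei with both sets, against 1.76% and 2.89% of all tested genes. Lrrc4, Megf10, Megf11, Slit1 and Cdh4 are described above, and the others were Nectin3, Sema6d, Sdk2, Nfasc and Lsamp. Sdk2, of a homophilic adhesion protein, had 1671 and 2255 CPM against 301 CPM in amacrine-like and 768 CPM in Müller-like nuclei. Sema6d, a semaphorin gene, had 217 and 336 CPM against 66.3 CPM, and Nectin3 had 84.3 and 67.2 CPM against 10.9 CPM in amacrine-like nuclei. Among the 21 were Cntnap2, Dscam, Opcml and Tenm2.

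Ret, the signalling receptor of the GDNF family, had 375 CPM in the 53 and 568 CPM in the 34, against 60.2 CPM in amacrine-like and 229 CPM in cluster 40 nuclei. Gfra2, of the co-receptor for neurturin, had 351 and 582 CPM against 76.9 CPM in amacrine-like and 431 CPM in cluster 13 nuclei. Gfra1, of the co-receptor for GDNF, had 437 and 653 CPM against 206 CPM and was above with the 34 alone. Of 34 tested genes of growth factors and their receptors, Gfra2 and Ret were above and 5 were below with both sets. The shares of all tested genes were 1.76% and 2.89%. Nrg3 and Fgf14 were among the 5, with 0 and 3 UMIs in the 34, against 2337 and 1280 CPM in amacrine-like nuclei.

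Of 33 synaptic release genes, Syt2 was above and Syt7, Cplx2 and Sv2c were below with both sets. The 1 above among 33 is near the 1.76% of all tested genes. Snap25, of a vesicle fusion protein, had 3269 and 4398 CPM against 1578 CPM in amacrine-like nuclei and was above with the 34. Of 22 calcium-binding protein and neuropeptide genes, Calb1 was above and 6 were below with both sets. Of 49 transcription factor genes, 0 were above and 7 below with both sets. Meis2, an amacrine factor gene, had 2 UMIs in the 34, against 900 CPM in amacrine-like nuclei, and Pax6 had 351 and 400 CPM against 667 CPM and was not called. Isl1, Otx2 and Hes1, genes of bipolar cells or glia, were among those above with the 53 alone. Of these, Isl1 and Otx2 are among the markers that defined the 34. Of 16 tested stress and immediate early genes, 0 were called in either direction with either set. With 16 genes, 0 lies near the shares of all tested genes, which ran from 2.36% to 5.05%.

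The 10 genes with the largest amacrine-like over horizontal ratios included Gad1, Tafa1, Ptprk, Rbfox1, Cemip, Necab1, Cpne8, Zmat4 and D430041D05Rik. Cemip had 0 UMIs in the 53, against 243 CPM in amacrine-like nuclei. Rbfox1, of a splicing regulator, had 53.4 CPM in the 53 and 41.1 CPM in the 34, against 2622 CPM in amacrine-like and 14572 CPM in cluster 36 nuclei. Rbfox2, its paralogue, was among the genes called horizontal-high with the 34. Ptprk, a receptor tyrosine phosphatase gene, had 13.8 CPM in the 53 and 0 UMIs in the 34, against 978 CPM. The 3 genes Tafa1, Necab1 and D430041D05Rik had 3 UMIs each in the 53.

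**Figure D4:**
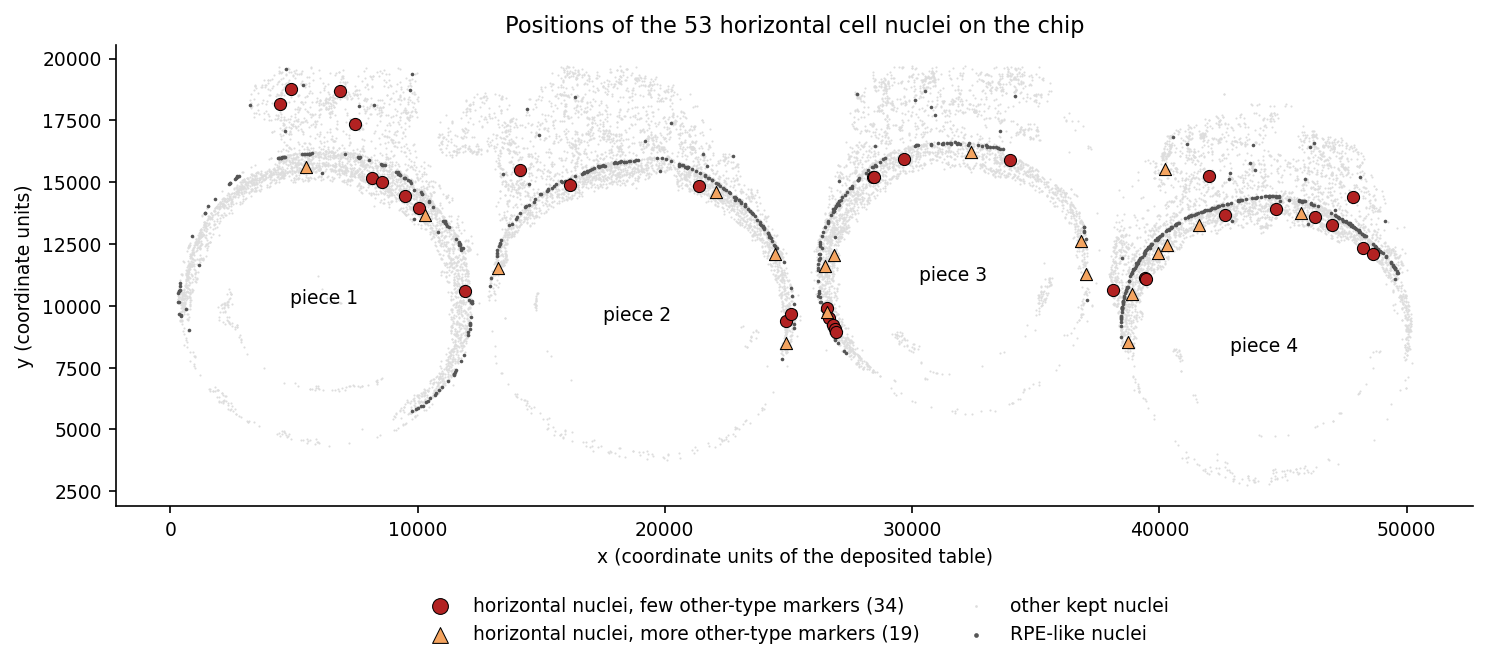
Positions on the chip (x and y in the coordinate units of the deposited table) of the 34 horizontal nuclei with few other-type markers (circles), the 19 with more (triangles), RPE-like nuclei (dark points) and all other kept nuclei (grey). Most of the 53 lie just inside the line of RPE-like nuclei, and 9 lie outside it.

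Where horizontal nuclei lay was asked from positions, which the selection did not use. Depth is the distance inward from the line of RPE-like nuclei (retinal pigment epithelium) at the same angle, in units of the chip table, of a length that the sources used here leave unstated. Of the 53, 43 (81.1%) lay in the retinal band from -150 to 1200 units, against 82.3% of amacrine-like, 66.9% of bipolar-like and 63.4% of rod-like nuclei. The median depth of the 43 was 359 units (quartiles 253 to 470), and that of the 26 of the 34 in the band was 361 units. Bipolar-like nuclei in the band had a median of 385, Müller-like 397, amacrine-like 499.5, ganglion cell-like 698, rod-like 151 and cone-like 77.5 units. Over all pieces, horizontal nuclei were thus deeper than photoreceptors and lay with the bipolar-like nuclei.

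**Figure D5:**
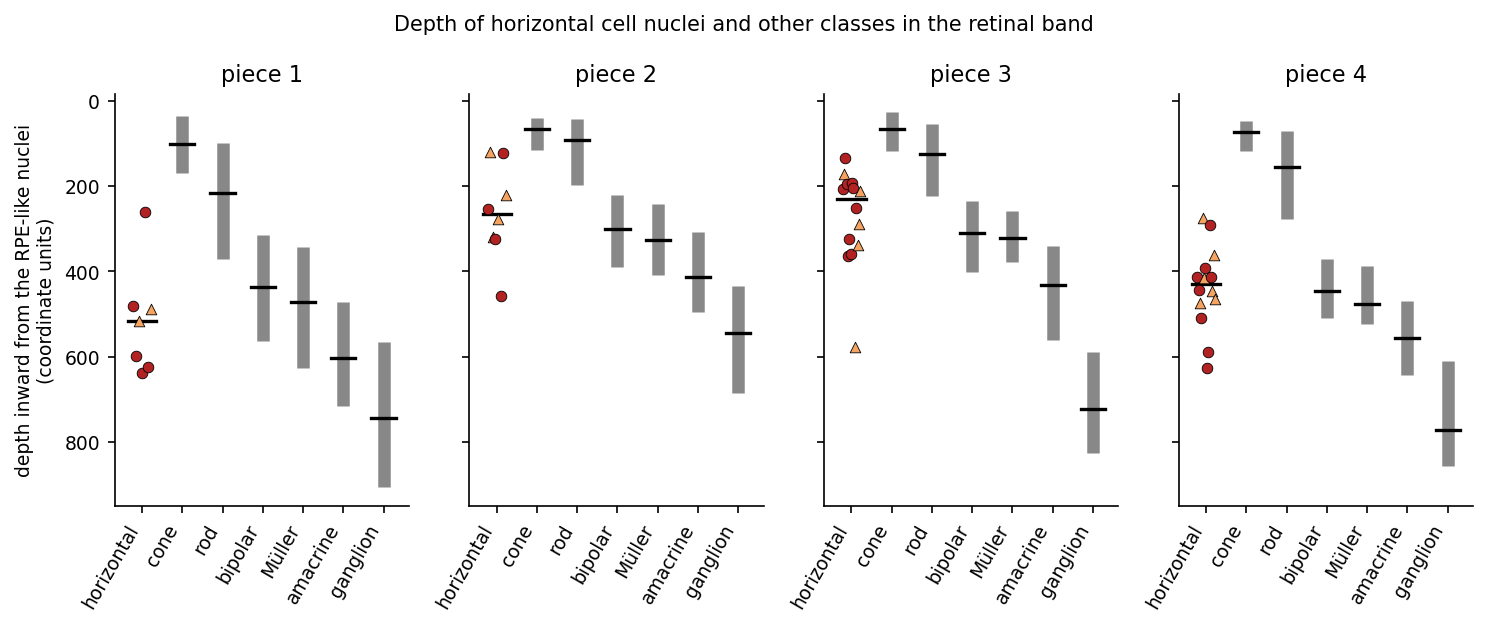
Depth inward from the RPE-like nuclei (y axis, coordinate units, increasing downward) in the 4 pieces. Points are horizontal nuclei in the band (circles, few other-type markers; triangles, more), grey bars are the quartile ranges of other classes, and lines are medians; the horizontal median is at 517, 265, 231 and 430 units in pieces 1 to 4.

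Piece by piece the order of these classes was not the same. Horizontal nuclei had median depths of 517, 265, 231 and 430 units in pieces 1 to 4, against 437, 300, 309 and 447 units for bipolar-like nuclei. They were therefore shallower than bipolar-like nuclei in pieces 2, 3 and 4 and deeper in piece 1, where the band held 7 members. Against amacrine-like nuclei, at 604, 413, 433 and 557 units, they were shallower in all 4 pieces. These horizontal medians rest on 7, 8, 14 and 14 members. With the 34, the medians were 598, 289, 206 and 429 units, from 5, 4, 9 and 8 nuclei. In piece 1 the 34 were thus at nearly the same depth as amacrine-like nuclei. The 9 members outside the band lay on the outer side of the RPE-like nuclei in pieces 1, 2 and 4, and 8 of them were among the 34 with few other markers. No depth could be given for 1 member of piece 3.

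The 20 nearest nuclei of each member held bipolar-like nuclei 1.98 times as often as their share of all kept nuclei (1.73 to 2.22 in the pieces), and 2.22 times for the 43 in the band. Around bipolar-like nuclei of the band that ratio was 2.21. Müller-like nuclei were at 2.40 times around the 43, amacrine-like at 1.66, rod-like at 0.961 and cone-like at 0.670 times. Around amacrine-like nuclei, amacrine-like neighbours were at 3.05 and rod-like at 0.421 times, and around bipolar-like nuclei at 2.16 and 0.747 times. Horizontal nuclei thus had more rod-like neighbours than bipolar-like nuclei in pieces 1, 3 and 4, but not in piece 2 (0.704 against 0.791), and fewer amacrine-like neighbours in pieces 1, 3 and 4. In piece 2, amacrine-like neighbours were at 2.21 times around its 8 members in the band, against 2.22 around bipolar-like nuclei. Around the 4 of these that belong to the 34, they were at 2.33 times. Over all pieces, rod-like neighbours of the 26 of the 34 in the band were at 1.01 and amacrine-like at 1.40 times.

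The pieces held 11, 9, 15 and 18 members of 4487, 4115, 3719 and 4546 kept nuclei. Per 1000 inner retinal nuclei, this was 7.79 (3.90 to 13.9), 8.51 (3.90 to 16.1), 11.5 (6.43 to 18.8) and 18.1 (10.8 to 28.4). The intervals overlap. Of the 43 members in the band, 31 (72.1%, 56.3 to 84.7%) lay on the side of their piece where cones had more Opn1sw, the short-wavelength opsin gene that is high in ventral mouse retina. That side held 62.2% of inner retinal nuclei, a value within the interval. Of the 26 in the band that belong to the 34, 19 lay on that side. The distance from a member in the band to the nearest other one had a median of 539 units and a lowest value of 38.8, and 4 members had another within 100 units.

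Whether horizontal nuclei differed between pieces was asked by setting the highest piece against the lowest. With all 53, 120 of 13563 genes (0.885%) had bounds 2 or more times apart, against 17 (0.125%) with the 34, and 11 were in both. The 10 with the largest ratios included Kirrel3, with 85.3, 70.6, 1965 and 149 CPM in pieces 1 to 4 of the 53 and 0 UMIs in every piece of the 34. Lrp1b had 12.2, 20.2, 431 and 77.2 CPM in the 53 and likewise 0 UMIs in the 34. Bipolar markers were also highest in piece 3, at 2426, 4304, 8025 and 3423 CPM in the 53 nuclei of pieces 1 to 4. So were ganglion cell markers, at 97.5, 181, 715 and 226 CPM, while Müller glia and rod markers were highest in piece 4. The order of the other pieces was not that of Kirrel3, and the part of these markers in the result was not tested. The largest members, of 47927 and 42621 UMIs, lay in piece 3, whose 15 members pooled 218314 UMIs. How far the 120 calls rested on single nuclei was not tested. Clstn2, Nxph1, Rgs6, Sorcs1, Unc5d, Hs3st4 and Il1rapl2 were the others of the 10 besides Xist.

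Among the 17 genes of the 34, 10 had more than 70% of their UMIs in 1 nucleus of piece 2, the member of the 34 that fell in cluster 20. Those genes were Car10, Hs3st4, Il1rapl2, Kcnb2, Ntm, Otx2os1, Reln, Tmem132d, Zfp385b and Zfp804b. Xist was spread over more nuclei, with 0, 98.7, 0 and 615 CPM in pieces 1 to 4 of the 34, and 6 of the 11 nuclei of piece 4 had a UMI. Csmd1 had 579, 39.5, 189 and 478 CPM in the same pieces. Of the 27 horizontal-high genes, Adra2a, Hs6st3, Pde3a and Ptpro (4) differed between pieces with the 53 and 0 with the 34. Adra2a had 573, 806, 229 and 650 CPM in pieces 1 to 4 of the 53, and 695, 908, 580 and 980 CPM in those of the 34. Calb1 had 1009, 730, 726 and 1014 CPM and Slc4a3 1588, 2151, 2075 and 2062 CPM in pieces 1 to 4 of the 34, and neither was called.

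Likeness to other classes was described by the correlation of log2(CPM + 5) over 13563 genes, which are not independent. The 34 horizontal nuclei were most alike to cluster 13 (r = 0.80), followed by amacrine-like (0.78), cluster 36 (0.77), ganglion cell-like (0.76) and bipolar-like nuclei (0.74). All 53 were most alike to bipolar-like nuclei (r = 0.91), followed by amacrine-like nuclei (0.86). The class most like horizontal nuclei thus turned with the 19 nuclei that carried more markers of other cells. Bipolar markers were part of the sum that set these 19 apart. A lower likeness to bipolar-like nuclei without them was therefore built into the choice and is no separate result.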

How the data were processed

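The authors deposited a sparse matrix of whole-number UMI counts per gene and barcode and a table of barcode positions in coordinates of unstated unit. Per the submitters' processing notes, fastp, STAR and Seurat 4.1.1 were used with mm10. Their roles, the treatment of introns and strand and the calling of barcodes were not given in the sources used here. Without strand, an antisense gene such as Otx2os1 cannot be told from an overlapping gene.

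Here barcodes with 200 or more detected genes and under 10% mitochondrial UMIs were kept (16867 of 17285), log-normalised, reduced to 30 components of 2000 variable genes and clustered by the Leiden method (scanpy 1.11.5, igraph 0.11.9) into 41 clusters. Classes were named from marker lists, and 5 clusters stayed unnamed. A name was given where 3 or more markers stood out and the second-best class had clearly fewer, a rule set after clusters were seen. No doublet caller was run, so barcodes with markers of several cell types remain among the members.

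Counts were summed over nuclei and given as CPM with exact Poisson 95% intervals, and shares with exact Clopper-Pearson intervals (scipy 1.17.1). With 1 expression library there is no replicate and no test. Genes were called where bounds lay 2 or more times apart, among 13563 genes with 200 or more UMIs. The calling code was tested on simulated data. For thinned shares, each nucleus was drawn down to 1000 UMIs, and shallower nuclei were left out. Pieces were found by fitting rings to positions, and depth was taken from RPE-like nuclei, both devised after positions were seen.

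The members and the gene lists were chosen with earlier results of these data known. Genes to name were taken by rule, and not all are printed: the selection genes and markers, all identity genes, up to 4 horizontal-high genes and 3 genes of highest CPM of each further list, the 20 horizontal-high genes of highest ratio, the 10 of largest amacrine-like ratio and up to 10 that differ between pieces. Other genes named were chosen after their values were seen. Some genes of the lists are not reported here. Of 715 list symbols, 714 matched a feature, the exception being Septin4, which the files name Sept4. Unmapped columns of other samples numbered 0. Alternatives covered the choice of members, the clusters, the fold between bounds, thinning, the mean over nuclei, each piece left out and the number of neighbours.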

Additional observations from a re-analysis of the deposited data

How the results depend on the processing

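Of 98 alternative values, 75 stayed within counting error, the spread over pieces or 1.5 times of the value reported, and 23 moved. Members with 0 UMIs of a set of ganglion cell, amacrine and bipolar cell genes were 0.0949% of kept nuclei, with 741 CPM of Calb1, 43 horizontal-high genes, 262 genes above amacrine-like nuclei and 2 differing between pieces. With the cluster of horizontal markers, Calb1 was at 803 CPM, 44 genes were horizontal-high and 29 differed between pieces. The 34 nuclei, chosen after seeing the data, were 0.202% of kept nuclei, with 885 CPM of Calb1, 44 horizontal-high genes and 17 differing between pieces. Leaving out each piece gave shares of 0.284 to 0.345%, Calb1 at 511 to 698 CPM, 22 to 29 horizontal-high genes, 370 to 445 genes above and 437 to 498 below amacrine-like nuclei, median depths of 288 to 416 units and bipolar-like neighbours at 1.88 to 2.04 times. Thinned to 1000 UMIs, Calb1 was at 868 CPM, with 172 genes above and 149 below amacrine-like nuclei, fewer UMIs being left to count. As a mean over nuclei, Calb1 was at 707 CPM. With bounds 3 times apart, 14 genes were horizontal-high, 263 were above and 298 below amacrine-like nuclei, and with bounds 1.5 times apart 253 differed between pieces. Bipolar-like neighbours were at 2.35 times among the 10 nearest and 1.54 among the 50 nearest nuclei. Except where the construction shows it, the cause was not tested. No paired analysis was possible because there is 1 expression library and the labels give no groups. Depth limits genes of low counts most: 0 UMIs in all 53 nuclei still allows 5.16 CPM (3 counts).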
